A study of Arabidopsis thaliana with 3 samples.

Results

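The comparison described here set Arabidopsis thaliana seed imbibed for 3 days with trichostatin A (TSA) against seed imbibed for 3 days without it. TSA is a small molecule that inhibits histone deacetylases. All 22746 probe sets of the Affymetrix ATH1 array other than the AFFX controls were members, out of 22810 in the table. All seed was of ecotype Columbia and was surface sterilised. The imbibed seed germinated under 16 h light on nylon membranes over Murashige and Skoog (MS) agar medium. The treated sample is labelled with 10 micromolar TSA, whereas the treatment protocol gives 10 mM, and the concentration is written here as the sample's own label gives it. A sample of unimbibed seed, which had no TSA, gives a starting level beside each value. Each of the 3 states was measured on 1 array of total RNA from whole material, so no difference has a replicate check and no test was made. The labels give no genotype beyond the ecotype and do not say how many plants, seed lots or dishes were pooled.

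Histone deacetylases remove acetyl groups from histone tails, which is generally associated with a more closed chromatin and lower transcription, and inhibitors such as TSA leave histones more acetylated. After imbibition an Arabidopsis seed takes up water, uses its stored protein and oil, resumes ribosome production and cell growth, and pushes out the root. Plants carry large families of secreted defence and cell wall proteins, among them chitinases, thionins, lipid transfer proteins, peroxidases and expansins, whose transcripts often respond to stress as well as to development.

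Signals were scaled so that the mean of each array, taken without the lowest and highest 2% of probe sets, was 38.1. Scaled signals under 10.7, the 40th percentile of all pooled values, were raised to that floor before a ratio was taken. A ratio with the dimmer side at the floor is a lower bound and is written as "at least". "Rose" and "fell" are used of changes of at least 2-fold, and the account concentrates on changes of at least 4-fold. Values are scaled signals, given in the order unimbibed, untreated and TSA. A signal depends on its probe set, so levels of different genes are not compared.

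Of 15700 probe sets above the floor on either imbibed array, 356 (2.27%) were at least 4-fold higher with TSA and 149 (0.949%) at least 4-fold lower. At 2-fold the directions were closer in number, with 1639 (10.4%) higher and 1493 (9.51%) lower. Of the 356, 182 were paired with no gene and 10 with several, and of the 149 these numbers were 65 and 7. Such probe sets enter no count of loci and no gene list. Over all 22746 probe sets, 8730 had no gene and 503 had several. Late embryogenesis abundant (LEA), photosynthesis, plastid-encoded and cytosolic ribosomal protein genes were also set aside. Among the remaining 8301 measured loci, each with a probe set paired with 1 gene, 139 (1.67%) were at least 4-fold higher and 64 (0.771%) at least 4-fold lower. At least 2-fold higher were 736 (8.87%) and at least 2-fold lower 670 (8.07%). The counts given below for each gene list are to be read beside these shares. A locus above the floor on only 1 imbibed array could change in only 1 direction. The median log2 ratio over all measured loci was -0.03. In whole seed, fewer cells of a type and less RNA per cell cannot be told apart.

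**Figure D1:**
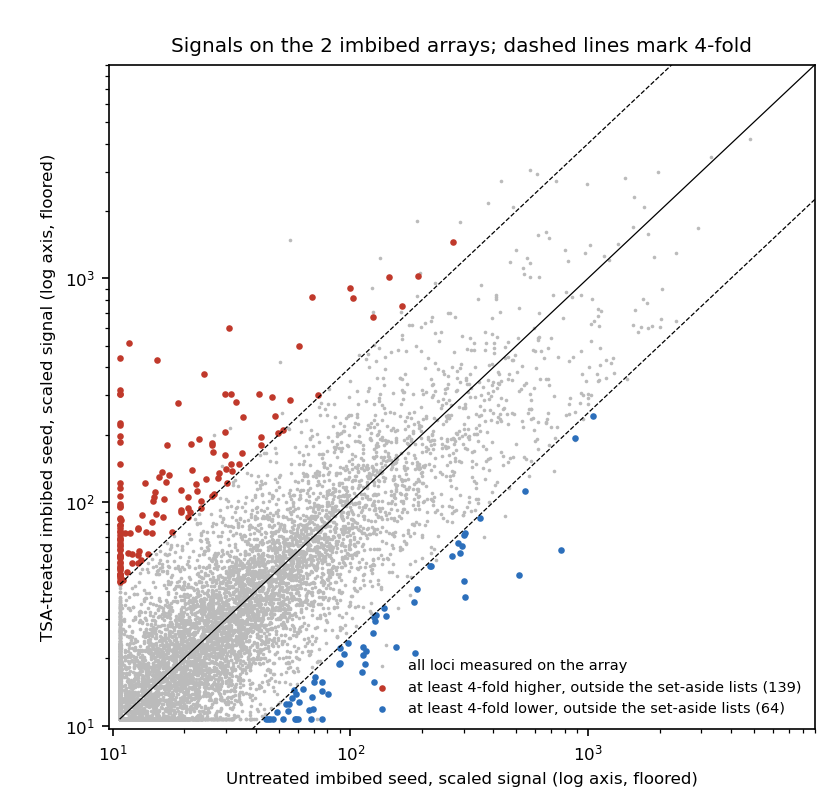
Scaled signal of each locus on the untreated (x axis) and TSA (y axis) array, both log axes, with signals under the floor drawn at 10.7. The solid line marks equality and the dashed lines 4-fold; red points are the 139 loci at least 4-fold higher and blue points the 64 at least 4-fold lower outside the lists set aside, and grey points past the dashed lines belong to those lists. The red points reach far above the upper line at dim untreated signals, and the blue points lie closer to the lower line.

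Error could be gauged only within the arrays. The 18 hybridisation controls, bacterial transcripts added just before hybridisation, had an SD of 0.14 in the log2 ratio. Probe sets of the same locus, taken over 49 loci where several were measurable in both imbibed samples, had a within-locus SD of 0.38. Both are small beside a log2 ratio of 2, but seed lots or dishes can vary in ways that neither gauge contains. Of the 139 higher and 64 lower loci, 0 had several probe sets, so the within-locus gauge checks none of these calls. A side was at the floor for 50 of the 139 and 10 of the 64, unlike the loci of that gauge. Where neither signal was at the floor, the log2 ratio itself had an SD of 0.86 over 12254 probe sets. That spread does not separate error from change. For a 2-fold change the margin over the gauges is narrower. The difference between 2 probe sets of a locus had an SD of 0.54, and in 4 of the 49 loci the ratios differed by at least 2-fold. The poly-A controls, bacterial transcripts normally added to the RNA before labelling, were brighter on the TSA array by a mean of 0.43 after scaling (SD 0.21 over 27 probe sets), and their part in the ratios was not tested. Signal near the 3′ end over that near the 5′ end of the actin control, a sign of RNA integrity, was 1.096 untreated and 1.43 with TSA. GAPDH gave 0.913 untreated against 0.757 with TSA, and the ubiquitin ratio changed from 2.02 to 2.12.

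The higher loci were mostly dim without TSA. Over the 139, the median signal was 12.6 in unimbibed seed, 14.7 without TSA and 105.5 with TSA. The dimmer side was at the floor for 50 of them and both sides were above it for 89. Of the 139, 33 were past 8-fold and 11 of these past 16-fold. Unimbibed seed was at or below the floor for 67. The lower loci showed smaller changes, of which 5 were past 8-fold and 0 past 16-fold. Over the 64, the median signal was 41.0 in unimbibed seed, 105.0 without TSA and 19.9 with TSA.

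Transcripts of defence proteins were among the largest increases. In a list of pathogenesis-related and antimicrobial proteins, 5 of 11 measured members rose, 4 of them at least 4-fold, and none fell. Over all loci outside the lists set aside, 8.87% rose and 8.07% fell. ECS1, THI2.2, OSM34, PDF1.4 and PDF2.1 were at the floor without TSA, so they entered through the TSA array and could not fall. The list's median log2 ratio of 0.75, against -0.03 over all measured loci, was that of PDF1.4. The 4 past 4-fold were ECS1, THI2.2, OSM34 and CHI. ECS1, a cell wall protein gene named in Arabidopsis for its link to the response to a bacterial pathogen, had signals of 0.862, 9.30 and 304 and was at least 28.3-fold higher. THI2.2 encodes a thionin, a small antimicrobial peptide, and had signals of 2.59, 3.95 and 198, at least 18.4-fold higher. OSM34 encodes an osmotin-like protein of the thaumatin family, induced by osmotic stress and pathogens. Its signals were 1.87, 5.88 and 148, at least 13.8-fold higher. All 3 were below the floor both before imbibition and after 3 days without TSA, and well above it only on the TSA array. The fifth, the defensin PDF1.2b, rose from 13.8 to 29.6 but had been at 636 in unimbibed seed.

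Chitinases, which cut the chitin of fungal walls, rose in 4 of 9 measured members, with a median log2 ratio of 0.66 and none that fell. The chitinase, berberine bridge-like, germin-like, lipid transfer, class III peroxidase, ribosome assembly, nucleotide and arginine, and SWEET lists were written from general knowledge of the loci after the values had been seen. CHI, also counted above, had signals of 22.99, 16.8 and 179, a log2 ratio of 3.41. ChiC, a class V chitinase, had 13.9, 16.4 and 103, a log2 ratio of 2.65. The chitinase-like AT2G43590 had 119, 29.7 and 205, a log2 ratio of 2.78. For CHI and ChiC the unimbibed and untreated signals were both close to the floor, while AT2G43590 was higher in unimbibed than in untreated seed. The fourth, AT1G02360, rose from 25.2 to 66.5.

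Several enzymes of oxidation and conjugation rose with them. Berberine bridge enzyme-like proteins are secreted FAD oxidases, some of which act on cell wall fragments or defence compounds. Of 11 measured, 4 rose and none fell, with a median log2 ratio of 0.76; scaled to the poly-A controls, 5 rose and 1 fell. AT5G44440 went from 1.29 in unimbibed and 15.4 in untreated seed to 432 with TSA, a log2 ratio of 4.82. AT1G26380 had signals of 0.575, 1.23 and 107, at least 9.93-fold higher. It was at the floor without TSA, so it could not fall. AT1G30700 had 0.862, 13.2 and 54.9, a log2 ratio of 2.06. All 3 were below the floor in unimbibed seed.

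Glutathione transferases, which attach glutathione to reactive or foreign compounds, rose in 4 of 11 measured members with none lower and a median log2 ratio of 0.62. GSTU25, of the tau class, was the member past 4-fold, with signals of 0.144, 14.9 and 106. The other 3 were GSTU22, from 11.6 to 33.7, GSTU18, from 7.90 to 26.7, and GSTL3, from 33.6 to 77.1. Without TSA, GSTU18, GSTF4 and ATGSTF13 were at the floor, so they could not fall. Among glycosyltransferases of small molecules (UGT), 11 of 32 rose and 1 fell. Of those that rose, UGT73B5, UGT84A3, UGT76C1, UF3GT and UGT76E2 were at the floor without TSA, so they could not fall. UGT76B1, which adds glucose to the defence-related isoleucic and salicylic acids, was the one past 4-fold, with 17.7, 14.7 and 81.7. The member that fell was UGT78D2, a flavonoid glucosyltransferase, from 100.3 to 37.9. Of 13 cytochrome P450 genes 4 rose and none fell, and CYP71B5 was past 4-fold, from 39.8 in unimbibed and 12.02 in untreated seed to 53.5. Scaled to the poly-A controls, 7 UGT genes rose and 5 fell, and 4 cytochrome P450 genes rose and 2 fell, while 4 glutathione transferases still rose and none fell.

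Among loci above the floor on both imbibed arrays, the largest ratio belonged to a lipid transfer protein locus. Loci with a side at the floor have only a lower bound and are not ranked against it. Lipid transfer proteins are small secreted proteins that bind lipids and take part in cuticle formation and defence. Of 21 measured, 7 were at least 4-fold higher and 1 at least 4-fold lower, although the list's median was 0.23, and -0.20 when arrays were scaled to the poly-A controls. AT2G37870 had signals of 7.18, 11.7 and 512, a 43.9-fold increase. AT5G48490 rose 19.4-fold, from 31.0 to 599.6. In the other direction AT5G01870 fell 12.5-fold, from 766 to 61.2, having been at 7.90 in unimbibed seed. This was the largest decrease among the 64 lower loci.

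Germin-like proteins, secreted proteins related to oxalate oxidases, had 1 member past 4-fold of 5 measured. It was AT1G18980, with signals of 2.01, 4.21 and 116, at least 10.8-fold higher. The other 4 had log2 ratios between -0.25 and 0.60. Large bounds were also held by loci that the tables give no name. AT5G04120 had signals of 2.44, 9.47 and 441, at least 41.1-fold higher. AT4G38080, AT3G06070, AT3G16530 and AT2G05540 were each below the floor without TSA and reached 303, 226, 222 and 185 with it. None of these 5 was above the floor in unimbibed seed.

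**Figure D2:**
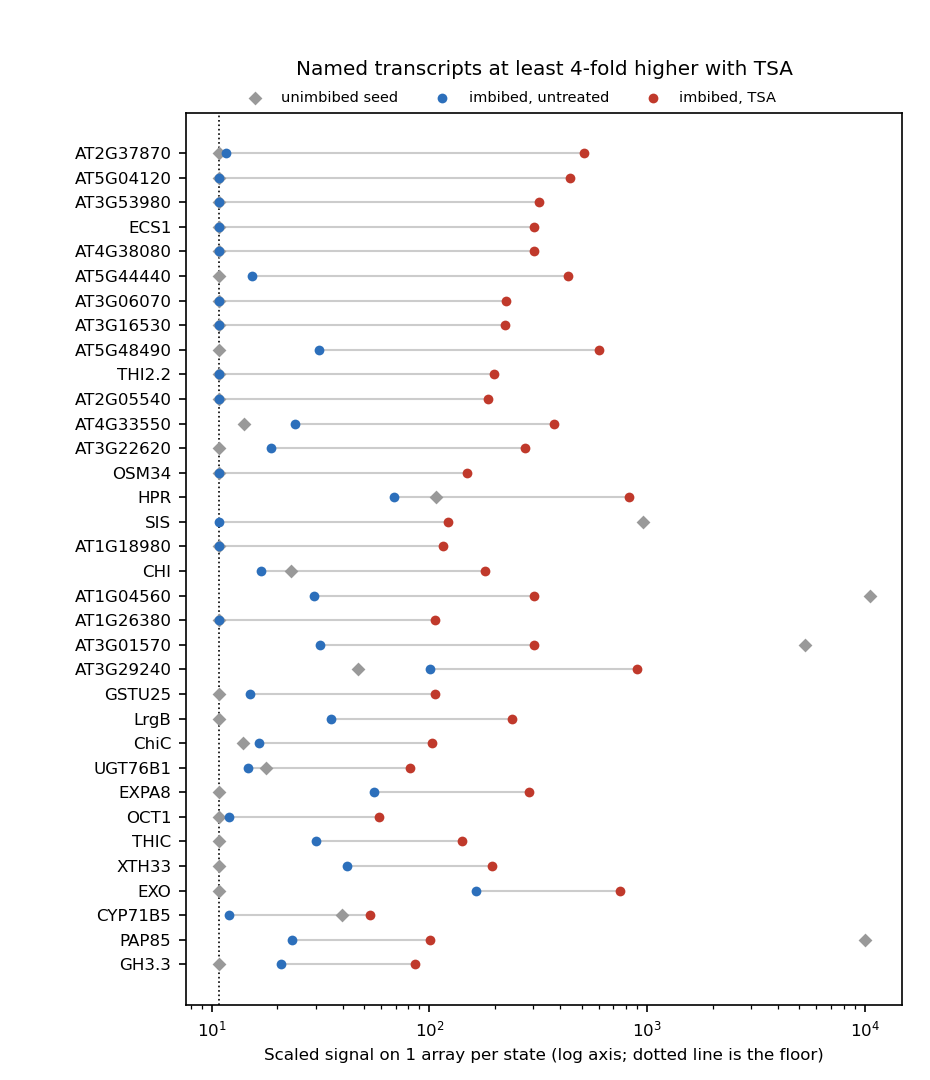
Scaled signal (x axis, log scale) in unimbibed seed (grey diamonds), untreated imbibed seed (blue circles) and TSA-treated imbibed seed (red circles) for the named transcripts with the largest increases, 1 array per state, with the floor as a dotted line. Most unimbibed points sit at or near the floor, whereas SIS, AT1G04560, AT3G01570 and PAP85 were brighter in unimbibed seed than with TSA.

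Cell wall genes changed in both directions. Expansins are secreted proteins that loosen the wall for growth. Of 16 measured, 5 rose and 3 fell, with a median log2 ratio of -0.08. EXPB1 had signals of 14.8, 0.702 and 83.5, at least 7.78-fold higher. EXLB1 had 17.7, 9.91 and 57.5, at least 5.35-fold higher. EXPA8 rose 5.15-fold, from 55.6 to 286. EXPA7 and EXPA18, both known from root hairs, fell from 101 to 30.4 and from 167 to 70.9. EXPA9 fell from 324 to 143.

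The xyloglucan endotransglucosylase/hydrolases (XTH), which cut and rejoin wall xyloglucan, held opposite changes. XTH33 rose from 41.9 to 195, a log2 ratio of 2.21, and XTH26 fell from 89.9 to 18.8, a log2 ratio of -2.26. Both were below the floor in unimbibed seed, and these were the members past 4-fold of 8 measured. Among pectin, cellulose and hemicellulose enzymes 3 of 25 rose and 1 fell, against 8.87% and 8.07% over all loci outside the lists set aside. ATPMEPCRD, a pectin methylesterase, was at least 5.36-fold higher, at 10.4 without TSA and 57.6 with it. The endoglucanase GH9C1 fell from 179 to 46.3. EXO, an extracellular protein linked in Arabidopsis to brassinosteroid-dependent growth, had signals of 2.44, 164 and 753, a log2 ratio of 2.20.

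Class III peroxidases, secreted enzymes that stiffen or loosen walls with hydrogen peroxide, rose in 8 and fell in 9 of 45 measured members. That list was written after the values had been seen. Over all loci outside the lists set aside, 8.87% rose and 8.07% fell. A shorter peroxidase list, among the first 69 lists, had 6 measured members, of which 0 changed 2-fold. It shares PRXR1 with the longer list, and it too was chosen with earlier results of these data known. The longer list's median was 0.32, and -0.08 when arrays were scaled to the poly-A controls. AT2G37130 had signals of 1.58, 41.2 and 304, a log2 ratio of 2.88. AT1G68850 rose from 11.6 to 58.8, a log2 ratio of 2.35. AT1G30870 fell from 546 to 112, a log2 ratio of -2.29. Of the 9 that fell, 6 had an untreated signal over 200: besides AT1G30870 they were AT5G64100, AT5G17820, AT4G26010, AT3G49960 and AT1G34510. AT5G64100 fell from 1054 to 243, AT5G17820 from 676 to 249, and AT4G26010 from 611 to 191. All 6 were below the floor in unimbibed seed, and with TSA all 6 stayed above it. AT3G49960 fell from 344.9 to 104. The root hair list held EXPA7 and EXPA18 as its measured members, and both fell with TSA; the part of root hairs in these decreases was not tested. The other measured markers of plant parts were IKU1 (endosperm), SPCH (guard cell lineage), UPB1 (root tip) and YAB3 (leaf primordia), with log2 ratios of 0.24, 0.58, 0.56 and -0.31. None of these 4 changed 2-fold. The 2 seed coat markers with a probe set were below the floor on both imbibed arrays, and no vascular marker had a probe set of its own.

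Named metabolic genes also rose at least 4-fold. HPR, the peroxisomal hydroxypyruvate reductase of photorespiration, had signals of 108, 69.0 and 828, a 11.99-fold increase. LrgB, the plastid carrier that exchanges glycolate and glycerate in the same pathway, had 5.604, 35.2 and 240.3, a 6.83-fold increase. Both are named outside the photosynthesis list, although they serve green tissue. THIC makes the pyrimidine part of thiamine in the plastid and had 7.33, 30.0 and 141. OCT1, an organic cation and carnitine transporter, had 1.15, 12.02 and 58.8. Of 26 nutrient transporters, 7 rose and 1 fell, and 4 rose and 5 fell when arrays were scaled to the poly-A controls. AT3G21670 was the one past 4-fold upward, from 11.2 to 73.0.

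The lists set aside were matched by symbol and by fixed locus IDs, so photosynthetic loci known by an ID alone stayed among the 139. AT2G26500, the cytochrome b6f subunit PetM, had signals of 1.72, 270.3 and 1449.8. AT1G51400, a photosystem II protein of low mass, had 34.1, 102 and 819. Both were chosen for mention after their values were seen.

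Among measured bZIP transcription factors, 1 of 16 was past 4-fold. This was BZIP61, which had signals of 0.431, 6.05 and 68.2 and was at least 6.35-fold higher. GH3.3, which joins auxin to amino acids, rose from 20.8 to 86.1. Of 6 measured WRKY and 11 measured basic helix-loop-helix factors 0 changed 2-fold, in lists too small to set apart from the 8.87% higher and 8.07% lower over all loci outside the lists set aside. The WRKY log2 ratios ran from -0.22 for WRKY20 to 0.50 for ZAP1. STOMAGEN, a secreted peptide that raises stomatal density, was at least 4-fold higher, at 10.6 without TSA and 47.2 with it; it was chosen after its values were seen.

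Some transcripts abundant in unimbibed seed stood higher with TSA than without, yet far below their unimbibed level. Of 5 measured storage and oil body proteins, 3 were at least 4-fold higher with TSA. AT3G01570, an oleosin, had signals of 5328, 31.4 and 303. PAP85, a vicilin-like storage protein, had 10078, 23.4 and 101. AT2G28490, a cupin storage protein, had 4348, 9.56 and 67.9. These proteins and oil bodies are the reserves that a germinating seed uses up. SIS, named for a salt-induced serine-rich protein, had 961, 9.39 and 121.6. The beta-glucosidase BGLU19 had 4271, 6.14 and 47.8. In each of these 5, the TSA signal lay between the untreated and the unimbibed one. The high unimbibed signals of the storage transcripts go with that sample's label as unimbibed seed. Over all 139 higher loci, 22 were brighter in unimbibed seed than with TSA.

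**Figure D3:**
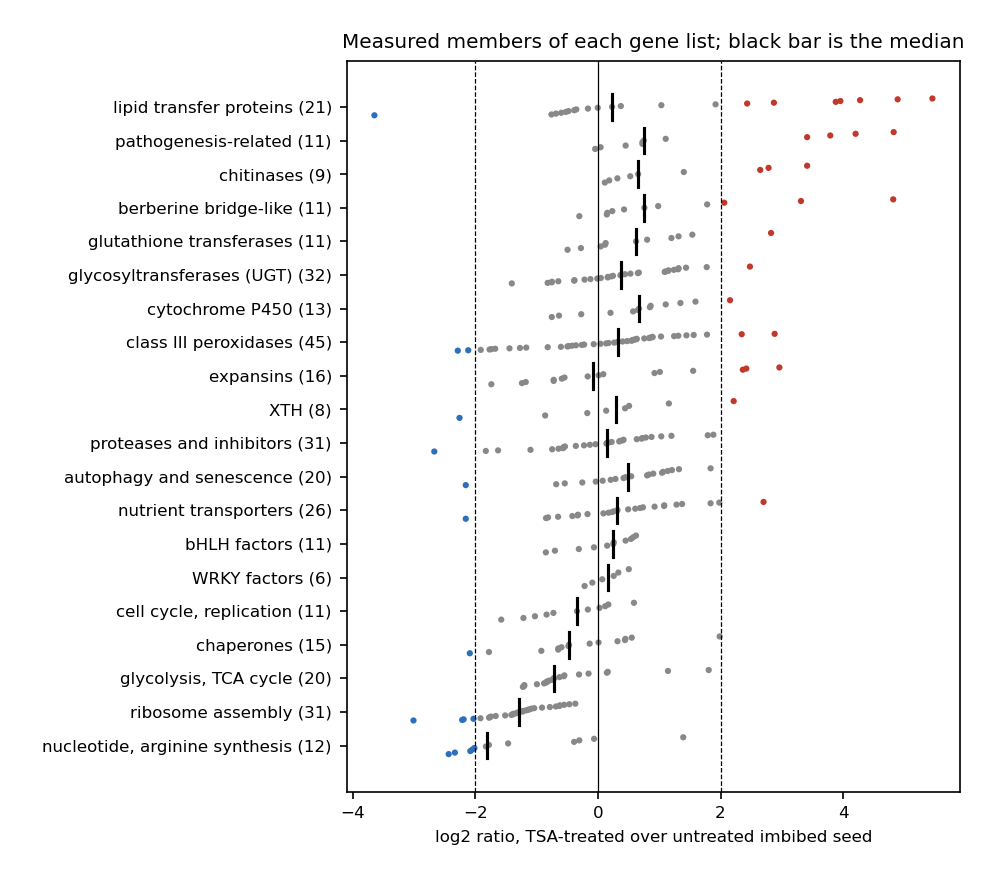
log2 ratio of TSA-treated over untreated imbibed seed (x axis) for each measured member of 20 gene lists, with the number measured in brackets, the list median as a black bar and 4-fold as dashed lines; red and blue points are past 4-fold. The lipid transfer, pathogenesis-related, chitinase and berberine bridge-like lists have members far to the right, the peroxidases reach both sides, and the ribosome assembly and nucleotide and arginine lists lie mostly to the left.

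Among the lower transcripts were most of the measured ribosome assembly factors, in a list written after the values had been seen. These nucleolar proteins process ribosomal RNA and put the subunits together, and they are not ribosomal proteins themselves. A shorter list of such factors, among the first 69 lists, had 4 measured members, of which 2 fell and 0 rose, with a median of -0.92. It is not a separate check, as it shares AT5G14520 with the longer list. The first 69 lists too were chosen with earlier results of these data known. Of 31 measured in the longer list, 23 fell, 4 of them at least 4-fold, and none rose. Over all loci outside the lists set aside, 8.07% fell and 8.87% rose. The longer list's median log2 ratio was -1.29 and its highest value -0.37. A list of 5 measured genes often used as stable references had a median of -0.66. AT4G12600 and AT5G20160, both of the L7Ae-type proteins that bind small nucleolar and spliceosomal RNAs, were the largest. AT4G12600 had signals of 117, 303 and 37.6, a log2 ratio of -3.01. AT5G20160 had 323, 294 and 63.5, a log2 ratio of -2.21. AT5G14520, the homologue of PESCADILLO, and AT2G40360, the homologue of BOP1, belong to the complex that matures the large subunit. AT5G14520 had 253, 142 and 31.0. AT2G40360 had 108, 125 and 30.7. In all 4 the TSA signal was below both the untreated and the unimbibed one. Short of 4-fold, AT5G06360 fell from 297 to 87.6.

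Enzymes that make nucleotides and arginine, also in a list written after the values had been seen, mostly showed the same direction. Of 12 measured, 8 fell, 5 of them at least 4-fold, and 1 rose, and the list's median was -1.80 on the log2 scale. PYRB, the aspartate transcarbamoylase of pyrimidine synthesis, had signals of 30.3, 113.3 and 22.5. OTC, the ornithine transcarbamylase of arginine synthesis, had 93.5, 219 and 51.8. Both enzymes use carbamoyl phosphate. AT4G24830, the argininosuccinate synthase of the next step after OTC, fell from 90.2 to 22.3. AT5G10920, the argininosuccinate lyase that follows, fell from 80.1 to 29.03. In purine synthesis, the GMP synthase AT1G63660 had a log2 ratio of -2.43, and the IMP dehydrogenases AT1G16350 and AT1G79470 had -1.78 and -1.83. AT3G18680, a plastid UMP kinase, fell from 138 to 33.5. The member that rose was the CTP synthase AT4G20320, from 6.67, below the floor, to 28.2.

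Other symbol-named genes past 4-fold lower had varied roles. Cpn60beta2, a subunit of the plastid chaperonin, had signals of 64.4, 302 and 71.0. MAP1C, a methionine aminopeptidase, had 28.9, 112.8 and 20.7. RAP, needed for 16S ribosomal RNA maturation in the chloroplast, had 26.2, 57.02 and 13.2. COS1, the lumazine synthase of riboflavin synthesis, had 99.7, 268 and 57.6. In all 4 the untreated signal stood above both others, and in all but Cpn60beta2 the TSA signal was also below the unimbibed one. DECOY had signals of 48.1, 90.01 and 19.1. AT4G02930, a mitochondrial elongation factor Tu, fell from 302 to 44.2.

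The other symbol-named decreases concerned transport and proteolysis. SAG29, also known as the sugar carrier SWEET15, fell from 70.0 to 15.7, while SWEET11 and SWEET2 rose from 54.5 to 215 and from 17.1 to 44.3. The serine carboxypeptidase-like gene scpl44 was at least 6.36-fold lower, at 68.3 without TSA and 9.28 with it. Among the proteases and inhibitors, 4 of 31 rose and 4 fell, against 8.87% and 8.07% over all loci outside the lists set aside. Those that rose included the vacuolar processing enzyme GAMMA-VPE, from 75.4 to 278, and scpl48, from 100.01 to 346. Those that fell included scpl35, from 549.9 to 155. Members of the same family thus changed in opposite directions.

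**Figure D4:**
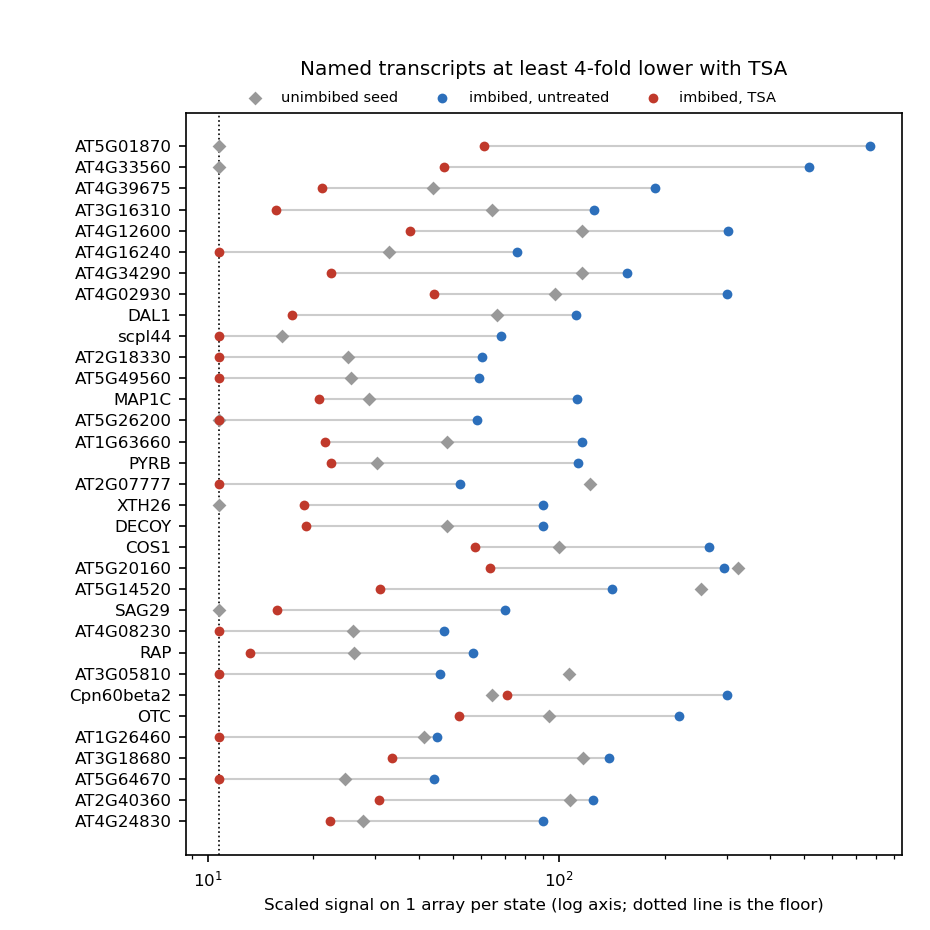
Scaled signal (x axis, log scale) in unimbibed seed (grey diamonds), untreated imbibed seed (blue circles) and TSA-treated imbibed seed (red circles) for the named transcripts with the largest decreases and for the members of the ribosome assembly and nucleotide and arginine lists past 4-fold, 1 array per state, with the floor as a dotted line. Most of these were above the floor in unimbibed seed.

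Genes just past the 4-fold line differed little from those just short of it. Among symbol-named higher loci above the floor on both imbibed arrays, those just inside were GH3.3, PAP85 and CYP71B5, with log2 ratios of 2.05, 2.11 and 2.15. Those just outside were SWEET11, the thylakoid ascorbate peroxidase TAPX and the calmodulin-like CML42, at 1.98, 1.96 and 1.94. Among lower loci chosen in the same way, OTC, Cpn60beta2 and RAP lay inside at -2.08, -2.09 and -2.11. The peptide deformylase PDF1A, GH9C1 and the nucleolar RNA helicase PRH75 lay outside at -1.96, -1.95 and -1.90.

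Among probe sets measurable on both imbibed arrays, increases past 4-fold were commoner in brighter bins. These 12254 probe sets, lists set aside included, were split into 5 bins by the geometric mean of both signals. With 1 side at the floor, 99 of the 356 higher and 26 of the 149 lower probe sets were left out. In the dimmest bin the floor allows no 4-fold change, and it caps the ratios possible in the next bins. How far the floor and the use of both signals set the trend was not tested. From the middle to the brightest bin, the share at least 4-fold higher was 2.08%, 3.22% and 4.28%, and the share at least 4-fold lower was 1.18%, 1.14% and 1.96%. Of the 139 higher loci, 66 had a TSA signal under 100 and 10 had one over 500. Of the 64 lower loci, 5 had an untreated signal over 500. Of the 139, 1 locus was measured by a probe set whose probes can match several transcripts, and of the 64, 2 were.

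The direction of each named locus past 4-fold held under every alternative tried, but the split of the calls did not. Of all probe sets past 4-fold, 70.5% were higher. With the poly-A controls set equal instead, log2 ratios with both sides above the floor moved by -0.43 and 33.2% were higher. With no floor, 52.0% were higher.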

How the data were processed

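Total RNA of 3 samples was hybridised to 1 ATH1 array each. As deposited, each probe set has 1 linear intensity per array. MAS5 is the tool named, per the submitters' processing notes. The sources used here give neither the MAS5 version nor its scaling target. Columns were matched to samples by name, and 0 were left over.

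From these values each array was scaled to a common mean without the lowest and highest 2% of probe sets, a floor was set at the 40th percentile, and log2 ratios were taken (Python 3.11.15, pandas 2.3.3, numpy 2.4.6). Such scaling hides a change of total messenger RNA. The number of arrays limits the precision.

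Platform annotation, updated through the RefSeq gene table, gave 1 gene for 13513 probe sets, several for 503 and none for 8730. Of the 13513, 13436 matched that table. A locus with several probe sets took the mean of their log2 ratios. No build was stated, so no coordinates are given, and promoter and protein sequences were not used here. Gene families and the roles of loci without a symbol come from general knowledge of Arabidopsis.

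The members, the 69 gene lists and the 8 added lists were chosen with earlier results of these data known. From the lists, 72 pairings of a list with a locus were left out, so the list counts and medians are without them. How far these exclusions change the counts and medians was not tested. Genes were selected for naming as the 20 largest ratios each way with a symbol, the 8 without, and the 12 largest bounds each way. Also selected were up to 6 members past 4-fold and the 2 brightest in each list, and the 3 nearest each side of 4-fold. Not every selected locus is described in the text. Examples left out there are AT4G33560, 10.9-fold lower, and AT3G53980, at least 29.6-fold higher. Other list members are given as the rest of a count, chosen after their values were seen. Of the lists, 4 matched no locus. The ratio and its thresholds were tested on simulated data. Scaling and floor alternatives were tried.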

Additional observations from a re-analysis of the deposited data

Results flagged for a closer look

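The poly-A control transcripts, which enter no ratio in the scaling used, were brighter on the TSA array as deposited by a mean log2 ratio of 0.46 over 27 probe sets.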

How the results depend on the processing

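With 1 array per state, none of these values has a replicate check, and signals near the floor limit what can be measured. No paired analysis was possible because each state has 1 array and the labels give no replicate numbers. The promoter motifs were not run, since no promoter sequences were used here. The loci selected for naming, not all described in the text, included 80 past 4-fold. Of these, between 52 (floor at the 60th percentile) and 80 stayed past 4-fold under each of the 8 alternatives. At least 78 stayed past 2-fold in the same direction. Of the 139 higher loci 51, and of the 64 lower loci 32, were past 4-fold under all 8. No named locus past 4-fold changed direction. Among the 10 list medians, those of peroxidases, lipid transfer proteins and germin-like proteins changed sign, under scaling to the poly-A controls.

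Scaled to the poly-A controls, 515 probe sets were at least 4-fold lower and 3921 at least 2-fold lower. The medians were then -0.085 for peroxidases, -0.20 for lipid transfer proteins, 0.19 for glutathione transferases, -1.76 for ribosome assembly and -2.26 for nucleotide and arginine synthesis. With the floor at the 25th percentile, 567 were at least 4-fold higher, 276 at least 4-fold lower and 2475 at least 2-fold lower, with medians of 1.51 for pathogenesis-related, 1.40 for chitinase and 1.36 for berberine bridge-like genes. With the floor at the 60th percentile, 88 were at least 4-fold lower, 1070 at least 2-fold higher and 954 at least 2-fold lower, with medians of 0.14 for berberine bridge-like genes and 0.13 for glutathione transferases; those of peroxidases and lipid transfer proteins were 0, and that of UGT genes was 0.019, with 5 in place of 11 that rose. With no floor, 1695 and 1566 were at least 4-fold higher and lower and 3952 and 4248 at least 2-fold, with medians of 1.51, 1.40 and 1.85 for the first 3 of these lists. A lower floor lets dimmer signals give larger ratios. The split between higher and lower calls at 4-fold was 72.4% higher for signals as deposited, 71.5% for median, 64.9% for 75th percentile and 64.7% for hybridisation control scaling, and 67.3% and 73.0% with the lower and higher floor.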

Other observations

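Several other groups held changes mostly short of 4-fold. In a list of senescence and starvation genes, 6 of 20 rose and 1 fell, and 5 of the 6 encode ATG8 proteins, ubiquitin-like markers of autophagosomes. ATG8E rose from 17.5 to 62.7 and ATG8F from 90.4 to 226. Both had been higher in unimbibed seed than in untreated imbibed seed, ATG8E at 51.2 and ATG8F at 450.2. Scaled to the poly-A controls, 2 members of that list rose and 3 fell. Glucosinolate genes, which serve sulfur-rich defence compounds of the cabbage family, rose in 3 of 5 measured members, among them AOP1, from 15.3 to 47.8, while BCAT4 fell from 23.5 to 10.99.

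Glycolysis, TCA cycle and fermentation genes had a median log2 ratio of -0.72 over 20 members, of which 2 rose and 3 fell, against 8.87% and 8.07% over all loci outside the lists set aside. PDC2, a pyruvate decarboxylase, fell from 104 to 44.5 and TPI, triosephosphate isomerase, from 2053 to 893. ALDH11A3, a non-phosphorylating glyceraldehyde-3-phosphate dehydrogenase, rose from 177 to 618. A list of genes often used as stable references had a median of -0.66 over 5 measured members. Its log2 ratios ran from -0.80 to 0.64, and 0 changed 2-fold. GAPC2, at -0.80, is in both lists. Among 15 chaperones, 1 rose and 2 fell, in a list too small to set apart from those shares. The calreticulin CRT1b fell from 739 to 216, while the small heat shock protein ATHSP22.0 rose from 8.60, below the floor, to 42.5. None of 7 measured chromatin regulators changed 2-fold, and that list is likewise too small to set apart from the 8.87% and 8.07%.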
